A study of Mus musculus with 12 samples.

Results

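The 37 genes described here encode the enzymes and transporters of glycolysis, the hypoxia-inducible factor HIF-1α with its oxygen sensors, genes that respond to low oxygen, and the enzymes that build and break glycogen. They were chosen by gene symbol from a list of pathway members, drawn up when earlier results of these data were known, and are 37 of the 24444 genes in each of a pair of deposited tables. RNA sequencing of poly(A)-selected, stranded libraries was applied to bone marrow cells of C57BL/6 mice. Hopx, a homeobox gene whose short protein lacks DNA binding of its own, was the gene under study, which set Hopx-wildtype beside Hopx-knockout marrow. The groups aged_WT (Hopx-wildtype, libraries 1, 6 and 7) and aged_KO (Hopx-knockout, libraries 3, 9 and 10) came from mice labelled aged, with a stated age of 18 weeks. The groups MN1_WT (Hopx-wildtype with MN1 overexpression, libraries 2, 3 and 4) and MN1_KO (Hopx-knockout with MN1 overexpression, libraries 5, 7 and 8) came from mice of 16 weeks. MN1, a coregulator of transcription, drives leukaemia in mice when overexpressed in marrow. The labels name neither the way MN1 was delivered nor the sex of the mice, and do not say that each library came from its own mouse, so p-values measure the spread between these libraries, which may be technical in part.

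Glycolysis turns glucose into pyruvate in the cytosol, and lactate dehydrogenase turns pyruvate into lactate, which leaves the cell through monocarboxylate transporters. HIF-1α is hydroxylated by prolyl hydroxylases and degraded when oxygen is plentiful; at low oxygen it is stable, pairs with ARNT and raises transcription of glucose transporters, most glycolytic enzymes, Vegfa and Bnip3. Bone marrow is poorly oxygenated, and neutrophils, the most abundant cells in it, hold few mitochondria, depend on glycolysis and store glycogen.

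Library totals ran from 16544407 to 28409046 counts. The knocked-out gene was at 14.2 to 33.6 CPM (counts scaled to the library total) in aged_WT and at 0, 0 and 0.121 CPM in aged_KO. In the MN1 experiment Hopx was at 14.1 to 27.9 CPM in MN1_WT and at 2.92 to 3.51 CPM in MN1_KO. Mn1, the gene named in the labels as overexpressed, was at 36.4 CPM in MN1_WT library 3 and at 22.1 to 47.3 CPM in the MN1_KO libraries. The libraries labelled MN1_WT 2 and 4 held only 0.395 and 0.160 CPM of Mn1, within the aged range of 0.0704 to 1.18 CPM, and so go against their label. Y-linked genes summed to 241, 81.8 and 229 CPM in MN1_WT libraries 2, 3 and 4, to 8.05 to 21.6 CPM in MN1_KO, and to at most 0.152 CPM in the aged libraries. Results of the MN1 experiment are therefore also given without MN1_WT libraries 2 and 4, a setting chosen after seeing these values. Red cell, B cell, neutrophil and stromal markers were all detected.

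Together the 37 genes took 1.15, 1.16 and 1.05% of all counts in aged_WT libraries 1, 6 and 7 and 1.58, 1.59 and 1.69% in aged_KO libraries 3, 9 and 10. All 3 aged_KO libraries lay above all 3 aged_WT libraries. The share was 1.36, 0.935 and 1.34% in MN1_WT libraries 2, 3 and 4 and 0.927, 1.10 and 1.33% in MN1_KO libraries 5, 7 and 8, and these groups overlapped. MN1_WT library 3, with Mn1, had a share close to that of MN1_KO library 5. The Mn1-poor libraries 2 and 4 had the highest shares of the MN1 experiment, but MN1_KO library 8, with Mn1, came close to them. On the deposited TPM, which is scaled for transcript length and so allows genes to be compared, Gapdh was the most abundant member in every group, at 2203 ± 44.3 TPM in aged_WT and 3287 ± 236 in aged_KO (SD, n = 3). Aldoc was the least abundant in every group, at 1.44 ± 0.11 TPM in aged_WT and 1.36 ± 0.16 in aged_KO (SD, n = 3).

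**Figure D1:**
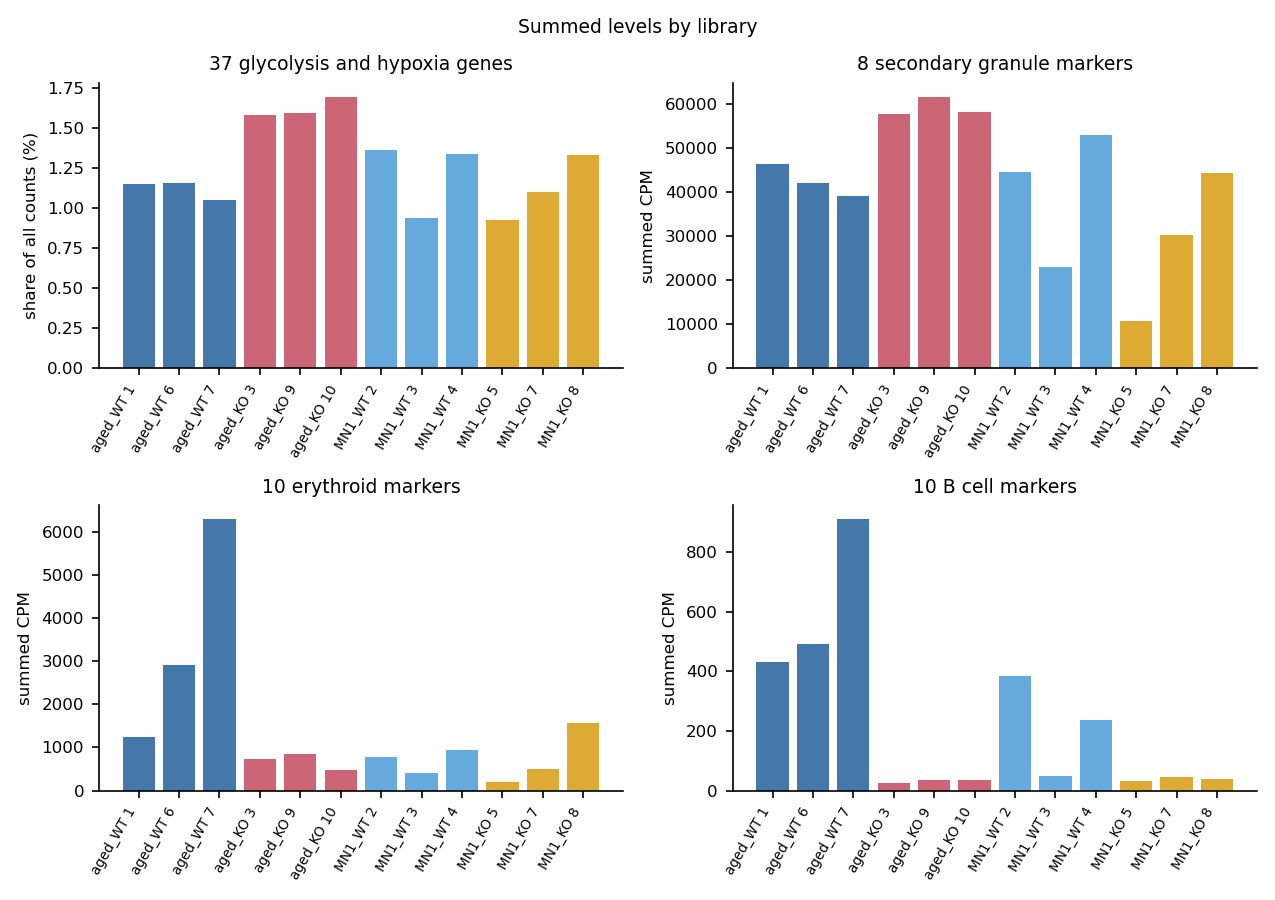
The panels show, for each of the 12 libraries, the share of all counts taken by the 37 genes and the summed CPM of secondary granule, erythroid and B cell markers. All aged_KO libraries stand above all aged_WT libraries in the first and second panels and below them in the other panels, and the MN1 groups overlap in the share of the 37 genes.

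The promoters of the members were searched for short sequence words. The members were chosen as glycolysis and hypoxia genes, many of which HIF is known to raise. The shares below are therefore not independent of that choice. HIF dimers bind DNA at a core written ACGTG or GCGTG. Both words were searched on both strands of the 250 bases before each start site in RefSeq's GRCm38.p6 promoter table, and overlapping matches were counted as 1. Of the 37 members, 34 had an entry. Each gene was counted by its start with the most matches. The 34 members had 48 starts, against 32851 starts for the 27025 genes in the table. At least 1 match was found for 30 of them (88.24%), against 60.21% of 9742 other genes tested in the aged comparison and 41.54% of all 27025 genes in the table. At least 2 matches were found for 21 of the 34 (61.76%), against 26.68% and 15.24%, and at least 3 for 7 (20.59%), against 9.95% and 5.37%. Promoters of the members were also richer in G and C, with a median of 64.0% against 60.8% in the other tested genes, and both words hold CG. A match is a string of letters and not a measured binding site.

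The matches stood in both responding and non-responding members. Among members with an entry, 18 of 22 that rose in the aged knockout had a match, as did 2 of 2 that fell and 10 of 10 that did not pass. The next 4 sequences show this spread: the glucose transporter with the largest rise, a riser with no match, the member with the most matches, which did not pass, and the lactate transporter that fell. Capitals mark either word on either strand. Each is printed 5′ to 3′ on the strand of the gene (build GRCm38.p6), from 250 bases before the RefSeq start, and stops early where the GENCODE annotation places an exon. The Slc2a1 stretch (chr4:119108495-119108713, plus strand) has matches beginning 61 and 36 bases before the start. Gbe1 (chr16:70313699-70313948, plus strand) has 0 matches, Bnip3 (chr7:138909520-138909756, minus strand) has 4, and Slc16a1 (chr3:104638414-104638663, plus strand) has 3.
Slc2a1: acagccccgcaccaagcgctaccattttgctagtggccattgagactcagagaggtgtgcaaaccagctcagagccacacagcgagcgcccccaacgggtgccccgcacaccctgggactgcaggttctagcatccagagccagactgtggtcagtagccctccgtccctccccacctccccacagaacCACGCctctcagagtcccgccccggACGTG
Gbe1: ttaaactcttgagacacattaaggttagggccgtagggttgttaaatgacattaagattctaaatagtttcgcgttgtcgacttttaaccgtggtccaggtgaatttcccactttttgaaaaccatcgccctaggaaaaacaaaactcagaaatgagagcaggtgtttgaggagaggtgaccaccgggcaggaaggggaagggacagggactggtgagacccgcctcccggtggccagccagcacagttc
Bnip3: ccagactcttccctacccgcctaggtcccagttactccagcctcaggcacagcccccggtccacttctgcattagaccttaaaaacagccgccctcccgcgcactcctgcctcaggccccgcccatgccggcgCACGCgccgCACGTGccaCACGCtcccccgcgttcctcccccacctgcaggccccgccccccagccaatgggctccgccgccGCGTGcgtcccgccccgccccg
Slc16a1: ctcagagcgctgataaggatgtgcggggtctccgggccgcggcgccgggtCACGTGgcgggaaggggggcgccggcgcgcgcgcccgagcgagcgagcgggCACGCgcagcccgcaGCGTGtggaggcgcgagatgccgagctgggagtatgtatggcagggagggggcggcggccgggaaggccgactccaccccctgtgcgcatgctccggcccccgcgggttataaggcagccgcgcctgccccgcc

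The comparison of aged_KO with aged_WT asks what loss of Hopx does without MN1. In it, 24 of the 37 genes rose, 2 fell and 11 did not pass the threshold (edgeR's quasi-likelihood test, Benjamini-Hochberg adjusted p under 0.05 over all 12771 genes tested). Over all genes tested, 15.6% were called higher and 15.8% lower. Risers were found among the transporters, upper and lower glycolysis, oxygen-sensing, other hypoxia-responsive and glycogen genes, and not among the phosphofructokinases, with folds from 1.28 (Hk1) to 2.59 (Slc2a1). The members' median log2 fold change was 0.65, against -0.02 for all genes tested. All 37 members passed the filter on low counts.

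The level of RNA in whole marrow changes both when cells of a type become fewer and when each holds less, and these cannot be told apart here. Lineage markers also changed in this comparison. Neutrophil genes were called in the direction of most members, and genes of the other lineages in the opposite direction. Of 8 secondary granule genes of neutrophils 7 were higher, and their sum was 39094 to 46425 CPM in aged_WT against 57788 to 61734 CPM in aged_KO. Of 8 mature neutrophil genes 4 were higher (4317 to 5654 CPM against 5002 to 6514) and of 6 primary granule genes 5 were higher (4325 to 5690 CPM against 5432 to 11480). Both of these sums overlapped. Of 10 erythroid genes 8 were lower (1245 to 6297 CPM against 480 to 843), of 8 platelet genes all 8 were lower (248 to 313 CPM against 52.5 to 110), and of 10 B cell genes all 10 were lower (431 to 912 CPM against 25.9 to 35.8). Rag1 and Vpreb1 were at 0 in 1 aged_KO library each, and no other marker was at 0 in any library. Of 8 T and NK cell genes 7 were lower, of 10 monocyte and macrophage genes 4, and of 8 stromal and endothelial genes 1. The part of these shifts in the members' changes was not tested. None of 9 handling and stress response genes passed (3403 to 5551 CPM against 3771 to 3898).

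Both glucose transporters rose, and the pair of lactate transporters moved in opposite directions. Slc2a1, which encodes the widely expressed transporter GLUT1, was at 27.7, 27.6 and 31.8 CPM in aged_WT libraries 1, 6 and 7 and at 63.1, 65.1 and 70.8 CPM in aged_KO libraries 3, 9 and 10. The groups lay far apart, and the log2 fold change of 1.37 ± 0.11 (SE) was the largest among the 37 genes (edgeR adjusted p = 0.000211). Slc2a3, which encodes the high-affinity transporter GLUT3, stood at 382, 332 and 321 CPM in aged_WT and at 596, 721 and 547 CPM in aged_KO, a log2 fold change of 1.03 ± 0.16 (edgeR adjusted p = 0.00229). Slc16a3, which encodes the lactate exporter MCT4, gave 149, 146 and 141 CPM against 250, 274 and 258 CPM, or 1.03 ± 0.11 (edgeR adjusted p = 0.000591). Neither gene's groups overlapped. Slc16a1, which encodes MCT1, a transporter that carries lactate in either direction, fell from 65.6, 69.8 and 95.5 CPM to 48.6, 43.1 and 54.3 CPM. The groups did not overlap, and the log2 fold change was -0.48 ± 0.14 (edgeR adjusted p = 0.030). This call was lost when aged_WT library 7 or aged_KO library 3 or 9 was left out.

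All 3 hexokinases, which trap glucose as glucose 6-phosphate, rose. Hk3, the isozyme that granulocytes use most, was at 435, 446 and 355 CPM in aged_WT and at 661, 615 and 650 CPM in aged_KO, with no overlap (log2 fold change 0.82 ± 0.13, edgeR adjusted p = 0.00263). Hk2, which HIF-1 is known to raise, went from 80.1 to 89.0 CPM to 103 to 135 CPM (0.67 ± 0.12, edgeR adjusted p = 0.00426). For Hk1 the change was the smallest of the 24, at 0.36 ± 0.11 (edgeR adjusted p = 0.0329), the libraries overlapped (163 to 200 CPM against 192 to 209), and the call was lost without aged_WT library 1 or 6 or aged_KO library 3 or 9. Gpi1, which interconverts the glucose and fructose phosphates, rose from 1021 to 1158 CPM to 1572 to 1799 CPM (0.77 ± 0.13, edgeR adjusted p = 0.0033).

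Phosphofructokinase, the committed step of glycolysis, had no form called higher in the edgeR fit above. The muscle form Pfkm fell from 26.6, 31.1 and 46.4 CPM to 15, 16.4 and 12.4 CPM, with no overlap (log2 fold change -1.06 ± 0.21, edgeR adjusted p = 0.00653). The liver form Pfkl (0.31 ± 0.11, edgeR adjusted p = 0.0512) and the platelet form Pfkp (0.27 ± 0.10, edgeR adjusted p = 0.0615) narrowly missed the threshold. Pfkl passed as higher with DESeq2, limma-trend, DESeq2 size factors in edgeR and no filter on low counts. Pfkp passed as higher with DESeq2 and without aged_KO library 10. Pfkm made up 25.8 ± 4.63% of the summed TPM of the 3 forms in aged_WT and 12.1 ± 1.90% in aged_KO (SD, n = 3). Pfkfb3 and Pfkfb4, which encode enzymes that help set the level of fructose 2,6-bisphosphate, an activator of phosphofructokinase, both rose. Pfkfb3 was at 111, 106 and 94.5 CPM in aged_WT and at 163, 161 and 166 CPM in aged_KO (0.83 ± 0.11, edgeR adjusted p = 0.00107), and Pfkfb4 rose from 120 to 154 CPM to 212 to 239 CPM (0.93 ± 0.13, edgeR adjusted p = 0.00152). Aldolase A, encoded by Aldoa, rose by 0.65 ± 0.11 (edgeR adjusted p = 0.00396) and triosephosphate isomerase, encoded by Tpi1, by 0.47 ± 0.12 (edgeR adjusted p = 0.0159). The Tpi1 call was lost without aged_WT library 6 or 7. Aldoc, at 2.24 to 2.91 CPM in these libraries, did not pass (0.03 ± 0.23).

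In the lower part of the pathway, where ATP is made, 6 of 8 genes rose and 0 fell. Gapdh was at 2170, 2145 and 2027 CPM in aged_WT and at 3004, 2865 and 3186 CPM in aged_KO, with no overlap (log2 fold change 0.69 ± 0.13, edgeR adjusted p = 0.00502). Similar changes were found for Pgk1, the first ATP-making kinase (0.64 ± 0.14, edgeR adjusted p = 0.00984), Pgam1, the mutase (0.74 ± 0.12, edgeR adjusted p = 0.00285), and Pkm, the pyruvate kinase (0.78 ± 0.15, edgeR adjusted p = 0.00472). Enolase 1, encoded by Eno1, rose from 895, 932 and 807 CPM to 1258, 1252 and 1393 CPM (0.75 ± 0.13, edgeR adjusted p = 0.00378). Its near-identical copy Eno1b took 0.00269 to 29.7 CPM in aged_WT and at most 0.607 CPM in aged_KO, so the sum of both copies was 837 to 933 CPM against 1252 to 1394 CPM. Ldha, the lactate-forming subunit, had the least even rise, at 615, 622 and 596 CPM against 656, 703 and 913 CPM (0.49 ± 0.15, edgeR adjusted p = 0.0343), and its call was lost without any 1 of aged_WT libraries 1, 6 and 7 or aged_KO libraries 9 and 10. Ldhb, the subunit that favours pyruvate, did not pass (-0.04 ± 0.16), nor did Pdk1 (-0.06 ± 0.15), the kinase that HIF-1 uses to keep pyruvate out of mitochondria.

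Among the oxygen-sensing genes, Hif1a was at 89.9, 91.9 and 104 CPM in aged_WT and at 135, 132 and 129 CPM in aged_KO, without overlap (log2 fold change 0.65 ± 0.10, edgeR adjusted p = 0.00191). Egln3, which encodes the HIF prolyl hydroxylase PHD3 and is itself a HIF target, rose from 20.5, 16.6 and 16.2 CPM to 26.5, 28.2 and 30.4 CPM (0.86 ± 0.14, edgeR adjusted p = 0.00299). Egln1, which encodes PHD2, the main oxygen sensor, did not pass. Its CPM was slightly lower in every aged_KO library (33.8 to 38.2 against 38.6 to 41.7), and its scaled log2 fold change was 0.04 ± 0.10. Egln3 made up 36.9 ± 3.81% of the summed TPM of both hydroxylases in aged_WT and 50.9 ± 3.29% in aged_KO (SD, n = 3).

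Other hypoxia-responsive genes were divided. Vegfa, the growth factor for blood vessels, rose from 39.9, 46.1 and 43.5 CPM to 72.7, 58.8 and 69.4 CPM (log2 fold change 0.81 ± 0.10, edgeR adjusted p = 0.000876). Ero1l, the oxidase that forms disulphide bonds in the endoplasmic reticulum, went from 183, 189 and 162 CPM to 291, 269 and 276 CPM (0.82 ± 0.11, edgeR adjusted p = 0.00112). Neither gene's groups overlapped. The other 5 did not pass. They were the mitophagy receptor Bnip3 (0.30 ± 0.16), Ankrd37 (-0.28 ± 0.28), the mTORC1 inhibitor Ddit4 (-0.33 ± 0.15), the collagen prolyl hydroxylase P4ha1 (0.07 ± 0.13) and Ndrg1 (0.27 ± 0.13). Ddit4 was at 33.9, 32.7 and 36.0 CPM in aged_WT and at 20.6, 27.8 and 22.7 CPM in aged_KO, with no overlap, and was called lower only without TMM scaling and without aged_KO library 9 among the settings run.

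All 3 genes of glycogen metabolism rose. Gys1, the synthase, was at 73.6, 79.4 and 71.0 CPM in aged_WT and at 135, 124 and 142 CPM in aged_KO (log2 fold change 1.02 ± 0.10, edgeR adjusted p = 0.000395). Pygl, the phosphorylase that releases glucose 1-phosphate, stood at 867, 817 and 690 CPM against 1186, 1359 and 1211 CPM (0.84 ± 0.15, edgeR adjusted p = 0.00429). Gbe1, the branching enzyme whose promoter is printed above, stood at 49.2, 45.8 and 39.0 CPM against 60.5, 63.6 and 62.2 CPM (0.66 ± 0.12, edgeR adjusted p = 0.00477). In none of these genes did the groups overlap.

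**Figure D2:**
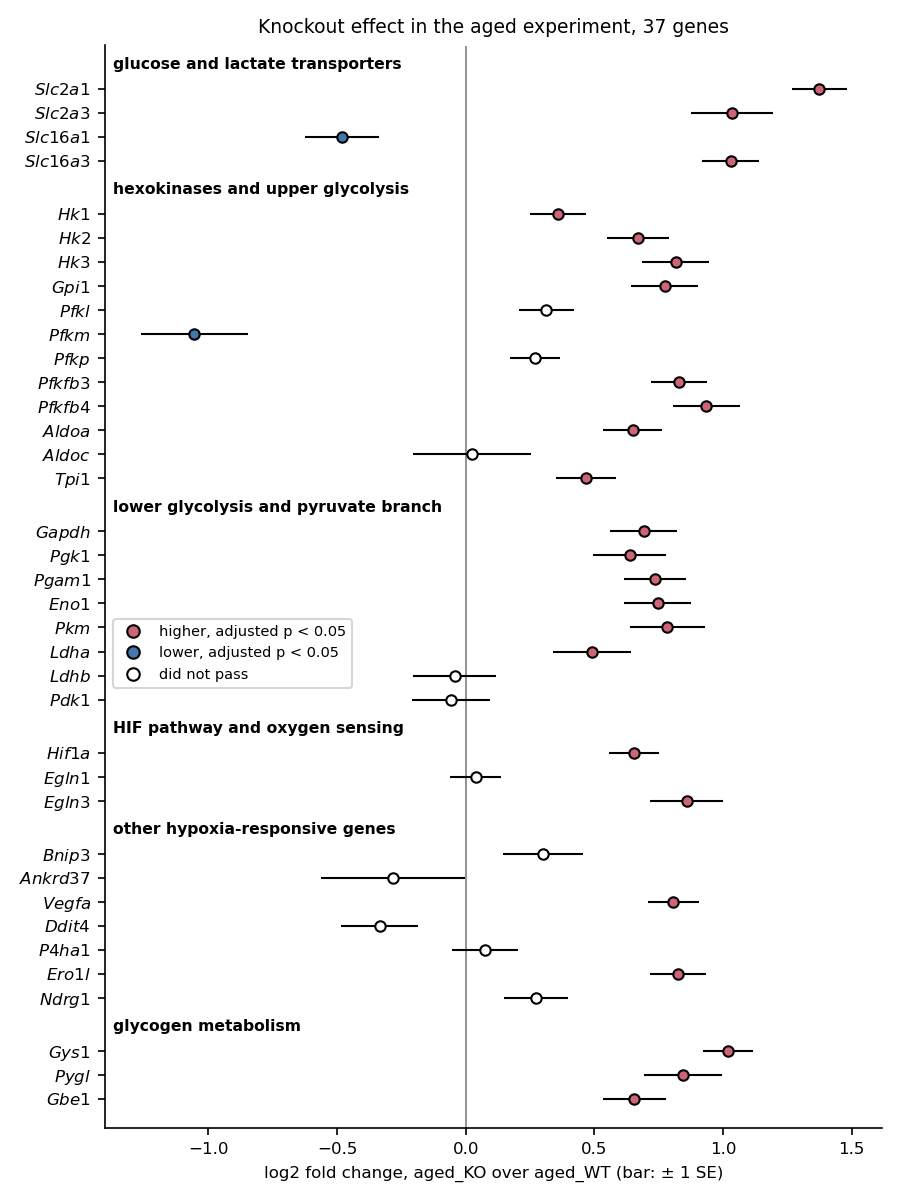
Each point is the log2 fold change of a gene in aged_KO over aged_WT (3 libraries each) with its standard error, grouped by role. Of the 37 genes 24 are filled as higher and 2 as lower, Slc16a1 and Pfkm, and 11 are open.

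On unscaled CPM, all 3 aged_KO libraries lay above all 3 aged_WT libraries for 23 members and below them for 4, and 10 overlapped. Among all genes tested these shares were 12.5% and 38.4%. TMM scaling, which sets the bulk of genes level, moved all genes: without it the median fell by 0.18 on the log2 scale and the higher calls were 23.6% of all calls in place of 49.6%. Without TMM 21 members were higher (Hk1, Ldha and Tpi1 were lost) and 3 were lower. When all 12 libraries shared 1 estimate of the spread, 3 members were higher (Slc2a1, Pfkfb3 and Gys1) and 1 was lower, and 818 genes in all were called in place of 4008. Slc2a1, Pfkfb3, Gys1 and Pfkm kept their calls in each of the 13 settings run.

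Genes of neighbouring pathways were counted in the same libraries, beside 15.6% of all genes tested called higher and 15.8% called lower. No list was tested against these shares, and the 5 of 25 HIF pathway and hypoxia genes that rose lay near the first. Of 8 pentose phosphate genes, which make NADPH, 5 rose and 0 fell. G6pdx, its first enzyme, was at 491.7 ± 74.8 CPM in aged_WT and 1064 ± 19.8 CPM in aged_KO (SD, n = 3), a log2 fold change of 1.29 ± 0.15 (edgeR adjusted p = 0.000781). Pgd (0.76 ± 0.13) and H6pd (0.70 ± 0.12) rose as well. Of 8 further glycogen genes, 5 rose and 0 fell, among them the primer Gyg (0.85 ± 0.12) and the phosphatase subunit Ppp1r3d (1.17 ± 0.19). Of 14 other glycolysis genes, 2 rose, Adpgk (0.72 ± 0.15) and Tigar (0.70 ± 0.19), and 5 fell. Those that fell included the red cell pyruvate kinase Pklr (-1.06 ± 0.24) and the muscle isozymes Eno3 (-0.81 ± 0.17) and Pgam2 (-3.14 ± 0.60), beside the lower erythroid markers above. Pgam2 was at or below 1.72 CPM in all of these libraries. Of 25 other genes of the HIF pathway and hypoxia response, 5 rose, led by Mxi1 (0.55 ± 0.10), Ak4 (1.12 ± 0.24) and Plod1 (0.48 ± 0.11), and 1 fell, Rora (-0.94 ± 0.31). Of 10 genes of pyruvate entry into mitochondria 0 rose and 1 fell, Pdk2 (-1.19 ± 0.25), an inhibitory kinase of pyruvate dehydrogenase. Of 4 glucose-sensing regulators 1 rose, Mlx (0.40 ± 0.10).

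MN1_KO against MN1_WT asks, by the labels, the same question under MN1, but Mn1 itself differed between the groups, since MN1_WT libraries 2 and 4 had almost none. None of the 37 genes passed in either direction, and neither did any of 13525 genes tested (0% higher and 0% lower, edgeR, smallest adjusted p = 0.0986). At an unadjusted p under 0.05, 1353 genes stood out, 2 of them members. DESeq2 called 623 genes and limma-trend 6, and neither called a member. The members' median log2 fold change was -0.04, against 0.03 for all genes, with 15 members above 0 and 22 below. Groups did not overlap for 1 member that was higher, Aldoc, and 1 that was lower, Slc2a3; among all genes these shares were 6.73% and 8.33%.

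The libraries within each MN1 group differed widely. Hk3 was at 561, 252 and 605 CPM in MN1_WT libraries 2, 3 and 4 and at 138, 247 and 495 CPM in MN1_KO libraries 5, 7 and 8. MN1_WT library 3 lay beside MN1_KO library 7, and MN1_KO library 8 lay nearest to MN1_WT libraries 2 and 4. Mn1 was at 22.1 CPM in MN1_KO library 8 and at 0.395 and 0.160 CPM in MN1_WT libraries 2 and 4. Whether Hk3 followed Mn1 was not tested. Pkm showed a like order, at 1722, 997 and 1769 CPM in MN1_WT and 795, 1102 and 1705 CPM in MN1_KO. The sum of secondary granule genes was 44586, 23010 and 52970 CPM in MN1_WT and 10631, 30193 and 44458 CPM in MN1_KO, so low values of Hk3 and Pkm fell in the libraries with low granule sums; the part of cell make-up was not tested. None of the 8 granule genes passed in this comparison.

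By the smallest p-values, the members nearest to the threshold were a glucose transporter and an oxygen sensor. Slc2a3 was at 417, 232 and 443 CPM in MN1_WT and at 68.2, 105 and 189 CPM in MN1_KO, with no overlap (log2 fold change -1.60 ± 0.53, edgeR adjusted p = 0.384). Egln3 was at 25.5, 57.7 and 19.1 CPM in MN1_WT and at 149, 112 and 27.1 CPM in MN1_KO (1.45 ± 0.59, edgeR adjusted p = 0.489), high in the libraries with much Mn1 except MN1_KO library 8. Below these in rank were Eno1 (-0.75 ± 0.35), Ndrg1 (-0.33 ± 0.15) and Hk2 (-0.48 ± 0.27) among lower values, and Aldoc (0.93 ± 0.46), P4ha1 (0.28 ± 0.20) and Bnip3 (0.23 ± 0.22) among higher ones; none passed. Eno1 was at 1160, 632 and 1176 CPM in MN1_WT and 571, 658 and 609 CPM in MN1_KO. In MN1_KO library 8 its copy Eno1b took 215 CPM, and the sum of both copies there was 824 CPM. Left without MN1_WT library 3, Eno1 was called lower and 896 genes passed in all. Without MN1_WT libraries 2 and 4 the value of Eno1 turned to 0.12 and that of Slc2a3 was -0.73, against a single wild-type library whose spread is assumed to be like that of the others, and 0 genes passed.

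**Figure D3:**
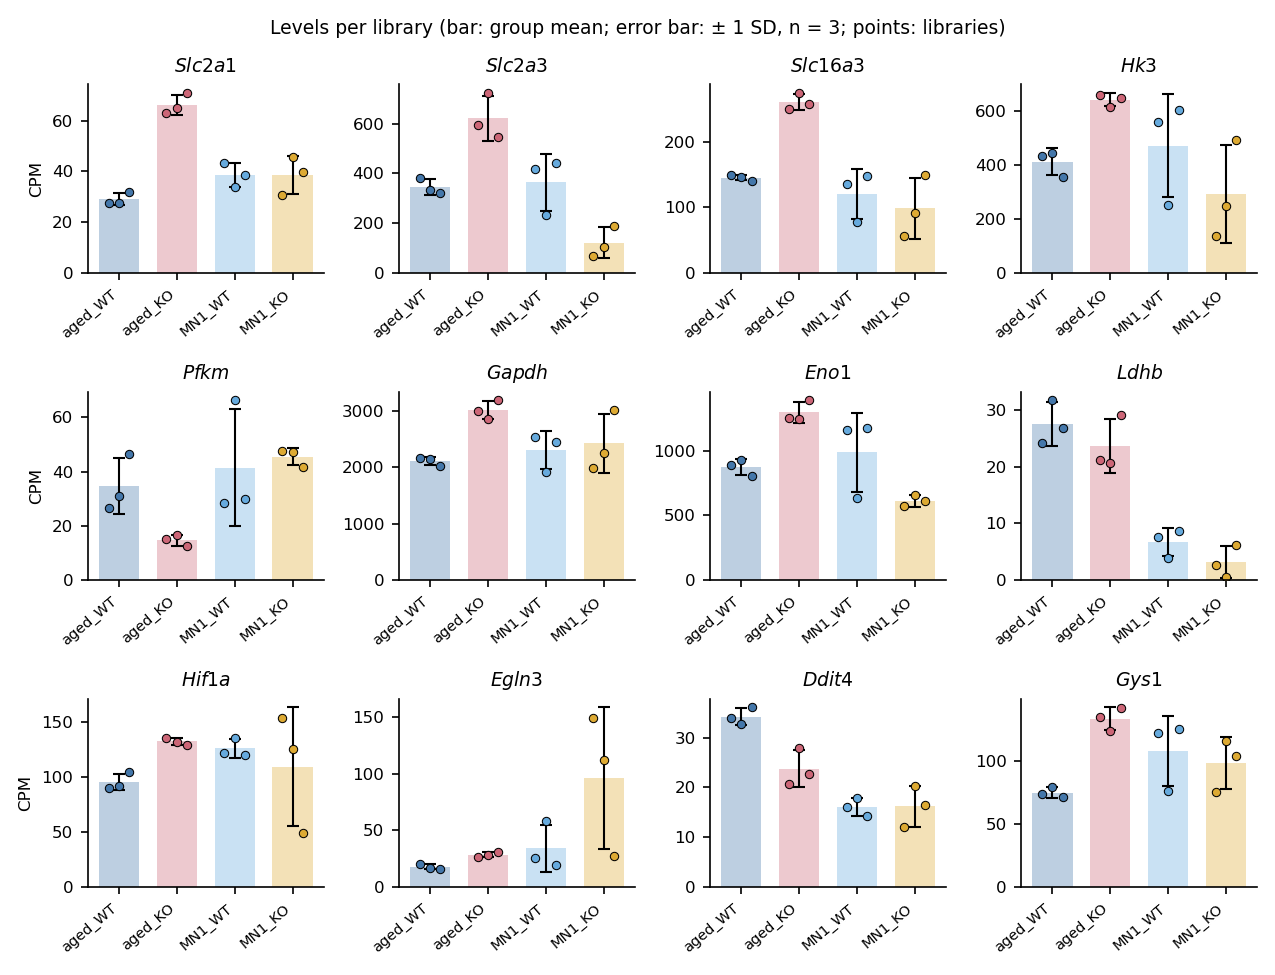
CPM of 12 of the 37 genes in each library (points), with the group mean (bar) and SD (n = 3). For Slc2a1, Slc2a3, Slc16a3, Hk3, Gapdh, Eno1, Hif1a, Egln3 and Gys1 all aged_KO points lie above all aged_WT points, whereas the MN1 groups overlap in every panel except Slc2a3.

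The difference of the knockout effects (MN1 minus aged) was tested in 1 fit of all 12 libraries. For both glucose transporters the fold change of knockout over wild type was lower in the MN1 experiment, and 0 members were higher. Mn1 and Y-linked RNA also differed between MN1_KO and MN1_WT, so the contrast does not compare effects of Hopx loss alone. The log2 difference was -1.41 ± 0.28 for Slc2a1 (edgeR adjusted p = 0.0289), whose levels were 43.4, 33.9 and 38.8 CPM in MN1_WT and 30.7, 45.6 and 39.8 CPM in MN1_KO. For Slc2a3 it was -2.63 ± 0.58 (edgeR adjusted p = 0.0397). Among 13937 genes tested, 1.41% were called higher and 1.92% lower. A count of 2 in 37 is too small to be read against these shares. Both calls were lost without any 1 aged library, without MN1_WT library 2 or 4, and without both of the latter (Slc2a1 -1.09 and Slc2a3 -1.84), and the Slc2a3 call was lost without MN1_KO library 5 or 7. Leaving out MN1_WT library 3 gave 17 members lower and 2 higher, and leaving out MN1_KO library 8 gave 7 lower.

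Over all 37 members, the 2 that passed included, the median difference was -0.61, against 0.08 for all genes. Neutrophil markers had lower medians still, at -1.24 for secondary granule, -1.29 for mature neutrophil and -1.58 for primary granule genes. Medians of erythroid, platelet and B cell markers were 1.06, 0.81 and 1.01. The part of cell make-up in the members' differences was not tested. Of the members that did not pass, nearest to the threshold were Pfkfb3 (-0.98 ± 0.24, edgeR adjusted p = 0.0521) and Eno1 (-1.50 ± 0.37, edgeR adjusted p = 0.0536). Values above 0, also not passing, were those of Pfkm (1.2 ± 0.39, edgeR adjusted p = 0.108), Slc16a1 (0.64 ± 0.28), Aldoc (0.89 ± 0.50) and Ddit4 (0.33 ± 0.31). Among 26 other HIF pathway and hypoxia genes 1 was higher, Zfp395, a hypoxia-responsive zinc finger gene (1.34 ± 0.31). Among 8 further glycogen genes 1 was lower. Without TMM scaling the median of all genes rose by 0.21 and the higher calls were 61.2% of all calls in place of 42.3%. Library totals without TMM gave 3 lower members.

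**Figure D4:**
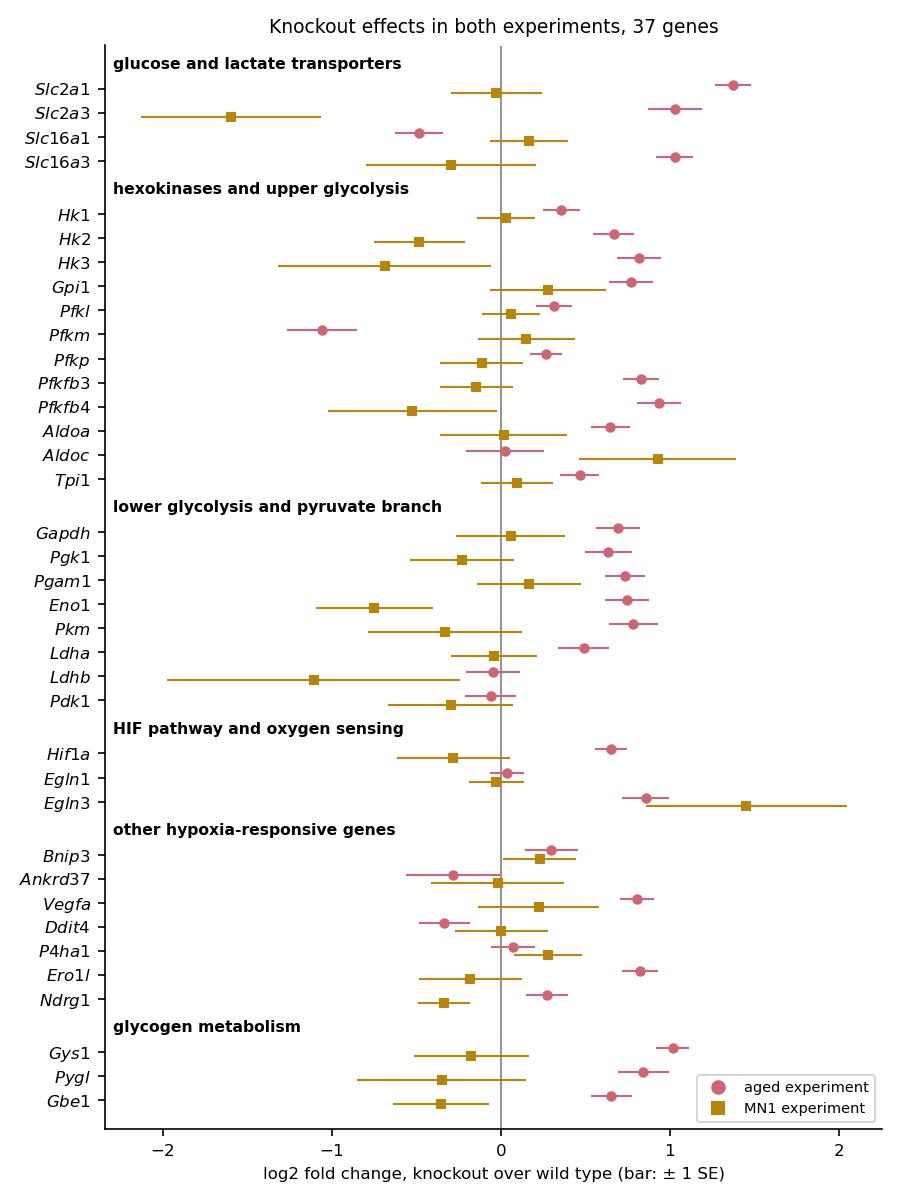
Log2 fold change of each gene with its standard error for knockout over wild type in the aged experiment (circles) and in the MN1 experiment (squares), 3 libraries per group. The error bars of the MN1 experiment are wider for 37 of 37 genes, and Slc2a1 and Slc2a3 are the genes whose difference passed the test.

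The groups MN1_WT and aged_WT differ in labelled MN1 status, stated age, table and Y-linked RNA, and these cannot be told apart. Y-linked genes summed to 81.8 to 241 CPM in MN1_WT and to at most 0.152 CPM in aged_WT. In Hopx-wildtype marrow 1 member was higher and 1 lower, beside 1.00% and 2.58% of 13937 genes. Hk1 was at 163, 174 and 200 CPM in aged_WT and at 267, 370 and 267 CPM in MN1_WT (log2 fold change 0.59 ± 0.13, edgeR adjusted p = 0.0367), highest in the library with Mn1. Ddit4 was at 33.9, 32.7 and 36.0 CPM against 16.1, 17.9 and 14.3 CPM (-1.25 ± 0.22, edgeR adjusted p = 0.0170). Neither gene's groups overlapped, but Hk1 passed in none of the 6 fits that left out 1 library, and Ddit4 was lost without any 1 aged_WT library or MN1_WT library 2. Beside these, 7 of 9 handling and stress response genes were lower (3403 to 5551 CPM in aged_WT against 1582 to 1836 in MN1_WT), and their part in the Ddit4 value was not tested. Without MN1_WT libraries 2 and 4 the values were 0.75 for Hk1 and -1.23 for Ddit4, from a single MN1_WT library whose spread is taken from the other groups. The median of the members was -0.02, against 0.06 for all genes.

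Further members stood closest without passing. Ldhb was at 24.2, 31.7 and 26.8 CPM in aged_WT and at 7.55, 3.94 and 8.61 CPM in MN1_WT, with no overlap (-2.16 ± 0.63, edgeR adjusted p = 0.0774), and Ankrd37 gave -1.01 ± 0.32 (edgeR adjusted p = 0.0991) and P4ha1 -0.37 ± 0.16. Higher but not passing were Hk2 (0.37 ± 0.21), Pdk1 (0.55 ± 0.31) and Pfkp (0.29 ± 0.18). Of the other lists, Hif3a, a HIF-α paralogue, was higher (1.78 ± 0.32) and Pgam2 lower (-4.77 ± 0.90). Without TMM the median of all genes rose by 0.16 and 39.9% of all calls were higher in place of 28.1%.

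In Hopx-knockout marrow more genes were called between the experiments, 5281 against 499 in Hopx-wildtype marrow. Mn1 was at 22.1 to 47.3 CPM in MN1_KO, but at 0.395, 36.4 and 0.160 CPM in MN1_WT libraries 2, 3 and 4. These contrasts therefore do not set like levels of Mn1 beside each other. MN1_KO and aged_KO also differ in labelled MN1 status, stated age, table and Y-linked RNA, which cannot be told apart. Y-linked genes summed to 8.05 to 21.6 CPM in MN1_KO and to at most 0.0604 CPM in aged_KO. MN1_KO had 18 members lower than aged_KO and 3 higher, beside 16.8% and 21.1% of the 13937 genes tested, and the median was -0.72 against 0.08. The aged_KO libraries are the same as in the first comparison. The lower members again ran from uptake to glycogen. Slc2a3 showed one of the largest differences, at 596, 721 and 547 CPM in aged_KO and 68.2, 105 and 189 CPM in MN1_KO (log2 fold change -2.68 ± 0.43, edgeR adjusted p = 0.00251). Slc2a1 (-1.13 ± 0.20, edgeR adjusted p = 0.00346) and Slc16a3 (-1.73 ± 0.39, edgeR adjusted p = 0.00874) were lower too, and Slc16a1 was higher (0.62 ± 0.20, edgeR adjusted p = 0.0336). Of the hexokinases, Hk2 (-0.78 ± 0.21) and Hk3 (-1.43 ± 0.49) were lower, with calls lost in 3 and 5 of the 6 fits without 1 library. The regulators Pfkfb3 (-0.95 ± 0.17) and Pfkfb4 (-1.45 ± 0.39) were lower as well, whereas Pfkm was higher, at 47.5, 47.3 and 41.8 CPM in MN1_KO against 12.4 to 16.4 CPM (1.26 ± 0.28, edgeR adjusted p = 0.00788).

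In the lower pathway Pgk1 (-1.12 ± 0.25), Eno1 (-1.45 ± 0.27) and Pkm (-1.29 ± 0.36) were lower, and Gapdh did not pass (-0.66 ± 0.25, edgeR adjusted p = 0.0543). The Pkm call was lost in 3 of the 6 fits without 1 library. With Eno1b added, the Eno1 sum was 571 to 824 CPM in MN1_KO and 1252 to 1394 CPM in aged_KO. Ldhb had the largest drop, from 21.2, 20.7 and 29.1 CPM to 2.55, 0.577 and 6.13 CPM (-3.24 ± 0.67, edgeR adjusted p = 0.00603). Among hypoxia-responsive genes, Vegfa (-1.01 ± 0.27), Ero1l (-0.72 ± 0.23), Ndrg1 (-0.88 ± 0.14) and Ddit4 (-0.91 ± 0.22) were lower. The Ero1l call was lost in all 6 fits without 1 library and without TMM. Egln3 went the other way, at 26.5, 28.2 and 30.4 CPM in aged_KO and 149, 112 and 27.1 CPM in MN1_KO (1.32 ± 0.47, edgeR adjusted p = 0.0471), with MN1_KO library 8 inside the aged_KO range, and its call was lost in 5 of the 6 fits without 1 library. All 3 glycogen genes were lower: Gys1 (-0.79 ± 0.26), Pygl (-1.32 ± 0.39) and Gbe1 (-0.81 ± 0.22). Their calls were lost in 5, 4 and 2 of the 6 fits without 1 library. Of the 21 calls, 9 held in all 12 settings run: Slc2a1, Slc2a3, Slc16a3, Pfkfb3, Pfkm, Pgk1, Eno1, Ldhb and Ndrg1.

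These differences stood beside others. Neutrophil markers were lower in MN1_KO, with 4 of 8 secondary granule genes, 7 of 8 mature neutrophil genes (the other was higher) and 6 of 6 primary granule genes lower, and secondary granule genes summed to 10631 to 44458 CPM against 57788 to 61734. All 9 handling and stress response genes were lower (1518 to 1726 CPM against 3771 to 3898). The part of either was not tested. Leaving out aged_KO library 9 or MN1_KO library 5 reduced the lower members to 9 and 11. Without TMM the median of all genes rose by 0.37, 79.8% of all calls were higher in place of 55.6%, and 14 members were lower and 4 higher. Counts of the other lists stand beside 21.1% of all genes tested called higher and 16.8% called lower, and no list was tested against these shares. Among them, 5 of 8 glycogen genes were lower, led by Ugp2 (-1.14 ± 0.24), Ppp1r3d (-1.54 ± 0.32) and Ppp1r3b (-1.48 ± 0.32), as were 3 of 8 pentose phosphate genes, among them G6pdx (-1.87 ± 0.41). Of 26 HIF and hypoxia genes 5 were higher, led by Zfp395 (1.71 ± 0.23), Hif3a (2.26 ± 0.32) and Angptl4 (1.21 ± 0.23), and 4 were lower, led by Mxi1 (-0.98 ± 0.22), Bnip3l (-0.59 ± 0.16) and Pdk3 (-0.60 ± 0.17). Both counts lay near the shares of all genes. Of 16 other glycolysis genes 2 were higher and 3 lower, of 11 pyruvate genes 1 was higher (Pdk2, 2.21 ± 0.63) and 2 were lower, and of 4 glucose-sensing genes 2 were lower.

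The make-up of the isozyme families followed these changes. On deposited TPM, Hk3 was the most abundant hexokinase in both aged groups, at 68.7 ± 3.97% of the summed TPM of Hk1, Hk2 and Hk3 in aged_WT and 74.1 ± 1.62% in aged_KO (SD, n = 3). In the MN1 experiment its share ran from 42.8 to 68.2% in MN1_WT and from 32.6 to 64.3% in MN1_KO, and Hk1 took 55.7% in MN1_KO library 5. Slc2a3 made up 86.6 to 89.9% of the TPM of both glucose transporters in aged_WT, 83.2 to 87.7% in aged_KO, 81.4 to 88% in MN1_WT and 58.7 to 75.2% in MN1_KO. The MN1_KO libraries lay below all others in this share. Egln3 took 34.6 to 41.3% of both hydroxylases in aged_WT, 47.9 to 54.4% in aged_KO, 39.4 to 65.7% in MN1_WT and 51.5 to 80.8% in MN1_KO. The last 3 groups overlapped, and aged_WT overlapped MN1_WT. Ldhb was 4.74 to 6.11% of both lactate dehydrogenase subunits in aged_WT, 3.63 to 3.98% in aged_KO, 0.823 to 1.68% in MN1_WT and 0.115 to 1.04% in MN1_KO. Aldoa was at least 99.6% of both aldolases in every library.

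**Figure D5:**
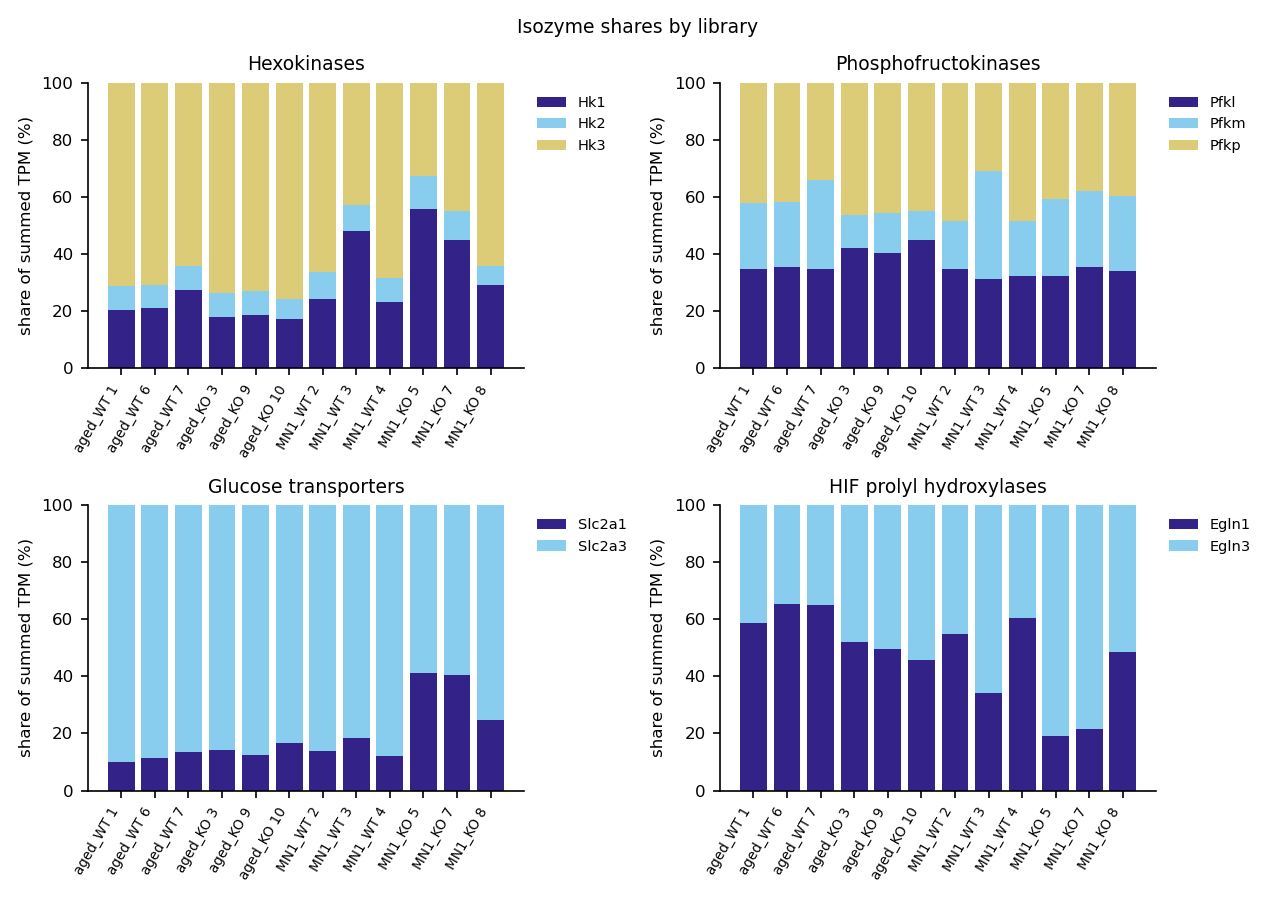
Stacked bars give, for each library, the share of the summed deposited TPM taken by each member of 4 isozyme families. Hk3 takes 64.1 to 75.9% in the aged libraries, Slc2a3 has its lowest shares (58.7 to 75.2%) in MN1_KO, and Pfkm its lowest (10.5 to 14.2%) in aged_KO.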

How the data were processed

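Expected counts per gene symbol were deposited by the authors in a table for the aged and a table for the MN1 libraries, made with RSEM 1.2.28 and Bowtie2 2.3.4.3 on mm10, per the submitters' processing notes. TPM and FPKM values were deposited beside them; TPM served for shares between genes, and FPKM was not used. The annotation and the strand setting of the counting are not given in the sources used here. Counts that were not whole, which arise when RSEM splits reads between similar genes, occurred in 7 of the 37 members (Gpi1, Gapdh, Eno1, Pfkfb3, Pfkl, Vegfa and Hk2), so values of these are less certain. Overlapping antisense genes could not be separated.

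Counts were rounded to whole numbers, filtered with filterByExpr (minimum count 10, minimum total 15), normalised with TMM factors, and edgeR 4.0.16 tested them (glmQLFit, robust, and glmQLFTest; R 4.3.3), two-sided, with Benjamini-Hochberg adjustment over all tested genes and a threshold of 0.05. The knockout effects were fitted on the 6 libraries of each table, and the other contrasts on all 12. Levels of single libraries are CPM without TMM. SE is the log2 fold change divided by the square root of F. The code was tested on simulated counts. DESeq2 1.42.0, limma-trend 3.58.1 (prior count 2), other scalings and filters (none, or CPM of at least 1 in 3 libraries) and the omission of each library were run as alternatives. No replicate pair of a group agreed within sampling noise (chi-square per degree of freedom 16.9 to 380).

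The members and lists were chosen with earlier results of these data known. Statistics are given for members past the threshold and, where fewer than 5 passed, for the 4 with the smallest p per direction, and for at most 3 genes per direction of each other list. Promoters and gene symbols were matched to RefSeq (GRCm38.p6). Ero1l matched as a synonym, and 34 members had a promoter entry; Slc2a3, Ero1l and Ndrg1 did not.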

Additional observations from a re-analysis of the deposited data

Results flagged for a closer look

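For both glucose transporters the fold change of knockout over wild type differed between the experiments by the test of the difference itself. Mn1 and Y-linked RNA also differed between MN1_KO and MN1_WT, so the difference is not of Hopx loss alone. The log2 effect in the MN1 experiment minus that in the aged experiment was -1.41 for Slc2a1 (edgeR adjusted p = 0.0289; 1.37 ± 0.11 in the aged and -0.03 ± 0.27 in the MN1 experiment) and -2.63 for Slc2a3 (edgeR adjusted p = 0.0397; 1.03 ± 0.16 and -1.60 ± 0.53). Slc2a1 was higher in 3 of 3 aged_KO libraries than in any aged_WT library and overlapped in the MN1 experiment, and Slc2a3 was higher in 3 of 3 aged_KO and lower in 3 of 3 MN1_KO libraries. Neither difference changed sign over the 19 settings run, but the Slc2a1 call was lost in 9 and the Slc2a3 call in 11 of them, each omission of 1 aged library among them. Both were also lost without MN1_WT libraries 2 and 4, which held almost no Mn1 against their label (-1.09 for Slc2a1 and -1.84 for Slc2a3).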

How the results depend on the processing

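No paired analysis was possible because the compared groups share fewer than 2 replicate numbers. In the aged comparison (4008 genes called, 24 members higher and 2 lower), the fit of all 12 libraries gave 818, 3 and 1, and leaving out a library gave 2402 (without aged_WT library 7) to 4599 genes, 21 to 25 members higher and 1 to 2 lower. In the MN1 comparison (0 genes), DESeq2 gave 623, limma-trend 6 and the fit of all 12 libraries 464; leaving out a library gave 0 to 896 genes and 0 to 1 members lower. For the difference of effects (463 genes, 0 members higher, 2 lower), DESeq2 gave 1677 genes and 9 members lower, the stricter filter 4 members lower, and omission of MN1_WT libraries 2 and 4 gave 40 genes and 0 members; leaving out a library gave 53 to 3337 genes, 0 to 2 members higher and 0 to 17 lower. For MN1_WT against aged_WT (499 genes, 1 member each way), DESeq2 gave 1785 genes and 3 members lower, no filter gave 0 members higher, and omission of MN1_WT libraries 2 and 4 gave 2465 genes and 2 members lower; leaving out a library gave 78 to 397 genes, 0 members higher and 0 to 1 lower. For MN1_KO against aged_KO (5281 genes, 3 members higher, 18 lower), leaving out a library gave 2515 to 7366 genes, 1 to 4 members higher and 9 to 22 lower. Among the members with statistics in the text, whose values alone were recomputed, signs turned on omitting MN1_WT libraries 2 and 4: Eno1 to 0.12 and Hk2 to 0.14 in the MN1 comparison, and Hk2 to -0.21 and Pfkp to -0.26 in MN1_WT against aged_WT. The cause of these moves was not tested, apart from the fewer libraries or genes that a setting itself brings. For the members called in the aged comparison, 299 values kept the call over the settings and 39 lost it, and 0 turned sign; among members not called, Pfkl, Pfkp, Ndrg1 and Ddit4 each passed in at least 1 setting. With 3 libraries a group, a p that misses the threshold does not show that levels were alike.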
